A study of Mus musculus with 2 samples.

Results

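The genes described here are the 37 genes of the mouse mitochondrial chromosome and 5 nuclear copies of mitochondrial sequence. They were chosen by name, as every annotated gene whose symbol begins with mt- plus Gm28661, Gm10925, Gm28437, Gm29216 and Gm10222, which gave 42 of the 55536 genes in the deposited tables. The mitochondrial genes comprise 13 messenger RNAs (mRNAs), 2 ribosomal RNAs (rRNAs) and 22 transfer RNAs (tRNAs), and the annotation gives 1 transcript to each of the 42 genes. Expression was measured by total RNA sequencing of gastrocnemius, a muscle of the calf, in 2 libraries that form 1 group: female mice aged 8 to 10 months from a cross of 5xFAD with CAST. The line 5xFAD carries mutated human genes that lead to amyloid deposits, as in Alzheimer's disease. CAST is an inbred strain derived from wild mice. The labels name no control group and do not say which parent strain gave the mitochondrial DNA, and the effect of CAST bases on read assignment against mm10 was not tested. Biological replicates are numbered 1 and 2, but both carry 1 donor identifier, so the spread between the libraries may be technical.

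Mitochondria keep a small circular chromosome that is transcribed from both strands as long precursors. The precursors are cut, mostly at the tRNAs that lie between the other genes, into mRNAs, rRNAs and tRNAs. The mRNAs code for subunits of respiratory complexes I, III and IV and of the ATP synthase, complex V, which are completed by subunits encoded in the nucleus. Over evolution, stretches of mitochondrial DNA have also been inserted into nuclear chromosomes, and reads from such a copy and from the mitochondrial gene can be alike.

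All 5 copies are annotated as unprocessed pseudogenes on the minus strand of chromosome 1 (mm10), between 24612407 and 24616197. They lie in the same order as their mitochondrial counterparts and cover 3791 bases. Gm28661 matched the first 681 of 684 bases of mt-Co2, Gm10925 the first 678 of 681 bases of mt-Atp6, Gm28437 the first 783 of 784 bases of mt-Co3 and Gm10222 the first 294 of 297 bases of mt-Nd4l, in all 4 cases with 100% identity. The 3′ ends of these pairs are shown because they hold the only annotated bases that tell gene from copy, and these bases are in capitals. In 3 of the pairs they are the TAA stop codon, and in mt-Co3 they are a single T, which is completed to a stop codon by the poly(A) tail. Each line runs 5′ to 3′ on the strand of the gene, from the GENCODE M21 transcripts.
mt-Co2 end (chrM:7657-7696, plus strand): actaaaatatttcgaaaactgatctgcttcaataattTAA
Gm28661 end (chr1:24614885-24614921, minus strand): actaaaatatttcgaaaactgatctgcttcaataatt
mt-Atp6 end (chrM:8568-8607, plus strand): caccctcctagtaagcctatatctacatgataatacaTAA
Gm10925 end (chr1:24613974-24614010, minus strand): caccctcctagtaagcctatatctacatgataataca
mt-Co3 end (chrM:9351-9390, plus strand): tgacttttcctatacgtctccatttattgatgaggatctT
Gm28437 end (chr1:24613189-24613227, minus strand): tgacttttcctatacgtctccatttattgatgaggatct
mt-Nd4l end (chrM:10134-10173, plus strand): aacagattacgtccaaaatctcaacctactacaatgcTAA
Gm10222 end (chr1:24612407-24612443, minus strand): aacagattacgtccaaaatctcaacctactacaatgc

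Gm29216 differs from the other copies. In a local alignment it matched bases 1063 to 1545 of mt-Co1 at 482 of 483 bases, with the substitution A1066T. Positions are counted from 1 at the first base of mt-Co1, with the mitochondrial base before the position. The first 9 bases of Gm29216 lie before this match, and only some of them differ from mt-Co1. Its first 60 bases are shown beside the mt-Co1 stretch that lines up with them, with the 6 bases that differ in capitals.
mt-Co1 stretch (chrM:6381-6440, plus strand): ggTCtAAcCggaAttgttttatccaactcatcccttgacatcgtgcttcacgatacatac
Gm29216 start (chr1:24616138-24616197, minus strand): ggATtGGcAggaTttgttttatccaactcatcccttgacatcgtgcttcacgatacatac

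Read length sets how far such differences can be seen. In the deposited gene tables the effective length of the longer genes is the length minus 100, as for reads of 101 bases. Of all windows of 101 bases, those found in mt-Co2 and in no other gene numbered 3 of 584. The same count was 3 of 581 in mt-Atp6, 1 of 684 in mt-Co3 and 3 of 197 in mt-Nd4l. Their 4 copies had 0 windows of their own. Within the mt-Co1 and Gm29216 pair, 1066 of the 1445 windows of mt-Co1 were absent from Gm29216, and 13 of the 392 windows of Gm29216 were absent from mt-Co1. Other nuclear copies outside the 42 genes share 97.6% of the windows of mt-Nd3 (Gm28438), 60.7% of those of mt-Nd4 (Gm28439) and 3.09% of those of mt-Nd2 (Gm13339), and Gm13340 and Gm13341 share windows with mt-Co1 and mt-Co2. Gm28438 and Gm28439 held 0 counts in the first quantifier described below, and in the second Gm28439 held 3152 counts in library 1 and 0.0106 in library 2. Windows of mt-Nd1, mt-Nd5, mt-Nd6, mt-Cytb, mt-Atp8, mt-Rnr1 and mt-Rnr2 occurred in no other annotated gene.

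The libraries held 35594289 (library 1) and 34541905 (library 2) expected counts in total, and spike-in RNAs held 0.479% and 0.504% of them. Reads were assigned to genes with 2 methods, called here the first quantifier, which gives expected counts, and the second quantifier, which gives estimated counts. Both also give TPM, an abundance relative to all transcripts of the library after correction for length. Muscle markers were abundant (Acta1 at 17981 ± 1441 TPM and Ckm at 15631 ± 1928 TPM), and the brown fat markers Ucp1 and Cidea were at or near 0 (0.02 and 0 TPM, and 0.13 and 0.26 TPM). Values after ± are SDs over n = 2 libraries, and with 1 group no test between groups could be made. Beyond counting error, which the intervals below cover alone, the libraries differed with a chi-square per degree of freedom of 20.4 over 14376 genes. This value was taken on total counts and summed over genes, so abundant genes can weigh most in it. It does not give the spread of a typical gene.

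The 42 genes held 19.0% of gene TPM in library 1 and 22.4% in library 2 in the first quantifier (20.7 ± 2.37%), and 16.5 ± 0.498% of gene counts. The 2 rRNAs held 10.1 ± 1.08% of gene TPM, the 13 mRNAs 6.14 ± 0.791% and the 5 copies 4.44 ± 0.499%. In the second quantifier these shares were 9.30 ± 1.21%, 7.61 ± 1.13% and 1.89 ± 0.198%. The copies thus held 42.0 ± 0.407% of the TPM of mRNAs and copies in the first quantifier, and 19.9 ± 0.697% in the second. Mitochondrial mRNAs and copies together held 9.67% of gene TPM in library 1 and 11.5% in library 2 in the first quantifier, with 8.56% and 10.4% in the second. Within a library the first quantifier was thus higher by 1.11 percentage points in library 1 and 1.06 points in library 2. The share of 7SL RNA, the RNA of the signal recognition particle, counted in the same total, was 35.4% in library 1 and 27.0% in library 2. With 7SL RNA left out of the total, the 13 mRNAs held 8.63% in library 1 and 9.18% in library 2.

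The most abundant members were the rRNAs of the mitochondrial ribosome. mt-Rnr2, the rRNA of its large subunit, stood at 54051 TPM in library 1 and 62151 TPM in library 2 in the first quantifier, and mt-Rnr1, of its small subunit, at 38737 and 45681 TPM. They ranked 3 and 4 among all genes in both libraries. The level of mt-Rnr2 over that of mt-Rnr1 was 1.40 in library 1 and 1.36 in library 2 (log2 ratio 0.46 ± 0.026), and in the second quantifier it was 1.69 and 1.64, a log2 ratio of 0.73 ± 0.028. The gap between the quantifiers was larger than the spread between libraries. In TPM, mt-Rnr1 in the first quantifier was 1.22 times its level in the second, against 1.01 times for mt-Rnr2. In counts both genes differed, in opposite directions. Mean counts of mt-Rnr1 were 1017022 in the first quantifier and 891174 in the second, and those of mt-Rnr2 were 2428758 and 2761595. The labels name a spike-in profile for rRNA-reduced libraries, and no source used here says how far such a reduction removed mitochondrial rRNA.

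Among the mRNAs of complex I, the NADH dehydrogenase, mt-Nd1 was highest at 6498 TPM in library 1 and 7715 TPM in library 2 in the first quantifier. mt-Nd4l followed at 4338 and 5583 TPM, and mt-Nd4, with which it overlaps by 7 bases, at 4119 and 5016 TPM. mt-Nd2 stood at 3650 and 4327 TPM, mt-Nd3 at 3606 and 4035 TPM, and mt-Nd5 at 3007 and 3656 TPM. mt-Nd6, the one mRNA of the other strand, was lowest of the complex I mRNAs at 959 and 968 TPM. All 7 code for membrane subunits of the complex, and in the second quantifier mt-Nd1 was again the highest of them and mt-Nd6 the lowest.

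mt-Cytb codes for cytochrome b, the one mitochondrially encoded subunit of complex III. Its level was 7215 TPM in library 1 and 8720 TPM in library 2 in the first quantifier, and 7018 and 8735 TPM in the second. In TPM, the quantifiers differed by less than the libraries did for this gene. In counts they differed by more than the libraries did, with 229007 and 239385 in the first quantifier and 248286 and 261157 in the second. The gene has no window in another gene, but neither do mt-Rnr1 and mt-Atp8, whose TPM differed more between the quantifiers.

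The 3 mRNAs of complex IV, cytochrome c oxidase, code for its core subunits and were far apart as deposited. mt-Co1, of the subunit with the oxygen-binding site, stood at 12152 and 14351 TPM in the first quantifier, with 12340 and 14878 TPM in the second. mt-Co2, of the subunit that takes electrons from cytochrome c, stood at 566 and 578 TPM in the first quantifier, with 2415 and 2932 TPM in the second. mt-Co3 had 1601 and 1941 TPM in the first quantifier, with 6726 and 8365 TPM in the second. Levels of mt-Co2 and mt-Co3 in the first quantifier lay below those in the second in both libraries, with no overlap.

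For complex V, mt-Atp6, of the proton channel subunit, stood at 3671 and 4580 TPM in the first quantifier, with 11762 and 15642 TPM in the second. mt-Atp8, of a small membrane subunit of the ATP synthase, is read from the same mature RNA and overlaps mt-Atp6 by 43 bases. It stood at 3994 and 4925 TPM in the first quantifier, with 6.66 and 10.7 TPM in the second. In counts that was 12630 and 13469 in the first quantifier, with 13 and 20 in the second. The gene is shown whole because it is the member on which the quantifiers differed most among those above 0 in both, and the bases shared with mt-Atp6 are in capitals.
mt-Atp8 (chrM:7766-7969, plus strand): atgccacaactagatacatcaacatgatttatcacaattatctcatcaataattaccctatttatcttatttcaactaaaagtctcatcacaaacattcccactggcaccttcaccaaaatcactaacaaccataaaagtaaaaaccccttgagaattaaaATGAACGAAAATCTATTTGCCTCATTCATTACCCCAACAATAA

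**Figure D1:**
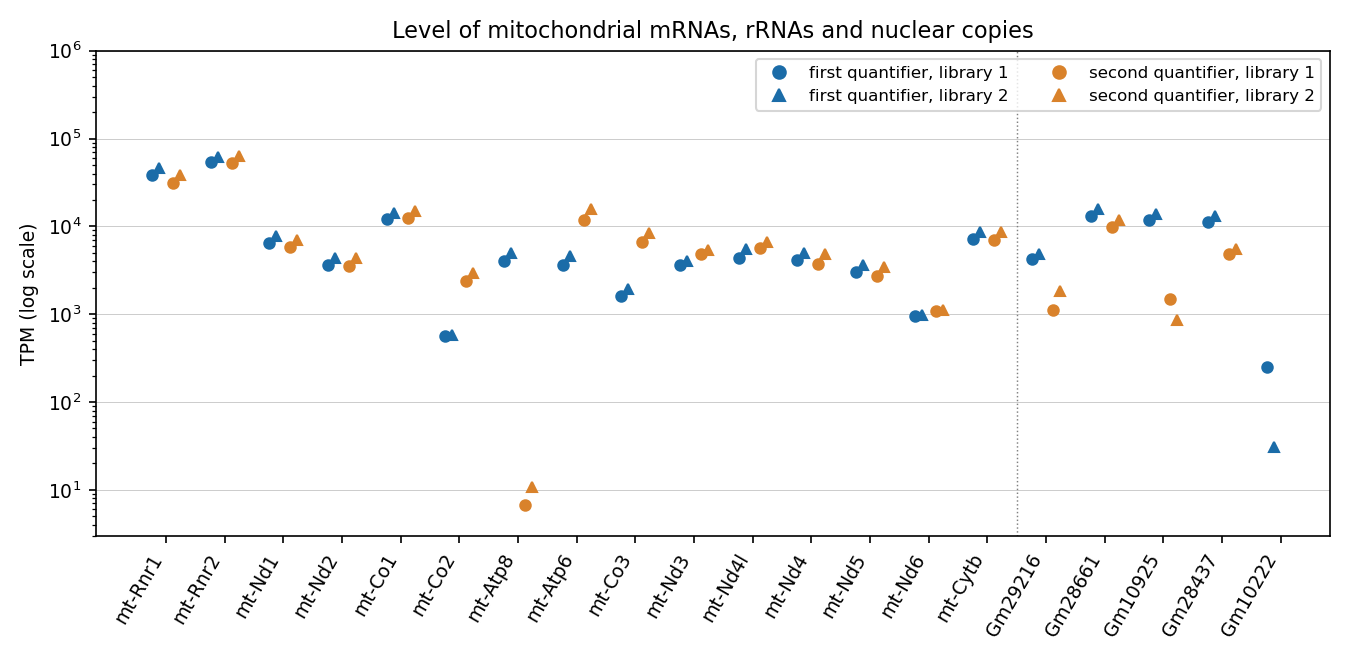
TPM on a log axis of the 2 rRNAs and 13 mRNAs in chromosome order and, right of the dotted line, of the 5 nuclear copies; circles are library 1, triangles library 2, blue the first quantifier and orange the second. Most genes have 4 points close together, whereas mt-Co2, mt-Atp8, mt-Atp6, mt-Co3 and most copies split by colour; Gm10222 is listed at 0 in the second quantifier and has no orange point.

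None of the 22 tRNAs had a count in either quantifier or library. They are 59 to 75 bases long, 14 on the plus and 8 on the minus strand, and thus shorter than the 101 bases of a read window, and the first quantifier gives each an effective length of 0. Of all genes in the first quantifier, 2452 had an effective length of 0 and 0 of them held a count, so its value of 0 carries no information on tRNA abundance. The second quantifier gives the tRNAs effective lengths of 20.4 to 26.3 bases, and what its 0 says of tRNA abundance was not tested. The longest, mt-Tl1, a leucine tRNA whose gene follows mt-Rnr2, is shown for its length.
mt-Tl1 (chrM:2676-2750, plus strand): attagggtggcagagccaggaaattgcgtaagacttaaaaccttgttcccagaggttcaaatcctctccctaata

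Nuclear copies ranked among the most abundant entries of the first quantifier. Gm28661, the copy of mt-Co2, stood at 13111 TPM in library 1 and 15614 TPM in library 2 in the first quantifier and ranked 9 and 8 among all genes, while mt-Co2 itself ranked 92 and 96. Gm10925, the copy of mt-Atp6, had 11767 and 13985 TPM, Gm28437, of mt-Co3, 11177 and 13052 TPM, and Gm29216, of mt-Co1, 4302 and 4872 TPM. Gm10222, the copy of mt-Nd4l, had 253 TPM in library 1 and 30.6 TPM in library 2.

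Division of counts within a pair differed widely between estimates for mt-Co2, mt-Co3 and mt-Atp6, and less for mt-Co1 and mt-Nd4l. mt-Co2 held 3.88 ± 0.405% of the pair's expected counts and 19.8 ± 0.159% of its estimated counts in the second quantifier. For mt-Co3 the shares were 12.8 ± 0.293% and 59.1 ± 1.51%, and for mt-Atp6 24.3 ± 0.629% and 91.9 ± 4.20%. mt-Co1, which has the most bases of its own, held 91.4 ± 0.233% and 97.9 ± 0.459%. mt-Nd4l held 97.0 ± 3.46% and 100%, with Gm10222 listed at 0 in the second quantifier. The gap between the quantifiers was larger than the spread between libraries in all pairs but the last.

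The summed counts of a pair in the first quantifier were 0.912 to 1.39 times those in the second. For mt-Co2 and Gm28661 the sum was 241652 in library 1 and 247440 in library 2 in the first quantifier, with 215427 and 217942 in the second, a ratio of 1.13. Counts of mt-Co2 alone gave a ratio of 0.220. For mt-Atp6 and Gm10925 the ratio of sums was 1.17, against 0.309 for mt-Atp6 alone and 10.96 for Gm10925 alone, and for mt-Co3 and Gm28437 it was 1.07, against 0.231 for mt-Co3 alone. For mt-Co1 and Gm29216 it was 0.912, against 0.851 for mt-Co1 alone. The pair of mt-Nd4l and Gm10222 was the exception, with 1.39 for the sum and 1.35 for mt-Nd4l alone.

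The first quantifier also deposits a posterior mean, a second estimate from the same reads, and its posterior SD. By posterior mean counts mt-Co2 held 13.7 ± 3.85% of its pair, mt-Co3 33.5 ± 1.59%, mt-Atp6 28.7 ± 0.0592%, mt-Nd4l 88.5 ± 3.55% and mt-Co1 91.4 ± 0.230%. The posterior mean of mt-Co2 was 39624 counts in library 1 and 27099 in library 2, against expected counts of 10057 and 8879. For mt-Co3 it was 91801 and 87090, against expected counts of 33304 and 34913. As a multiple of the square root of the expected count, the posterior SD of the 10 genes in pairs ranged from 0.506 to 49.9 in library 1 and from 0.561 to 55.9 in library 2. The other 10 mitochondrial mRNAs and rRNAs had at most 0.170 in either library. Over 11072 genes with a mean TPM of at least 1 the median was 0, and 3.99% of them in library 1 and 4.01% in library 2 were above 1.

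**Figure D2:**
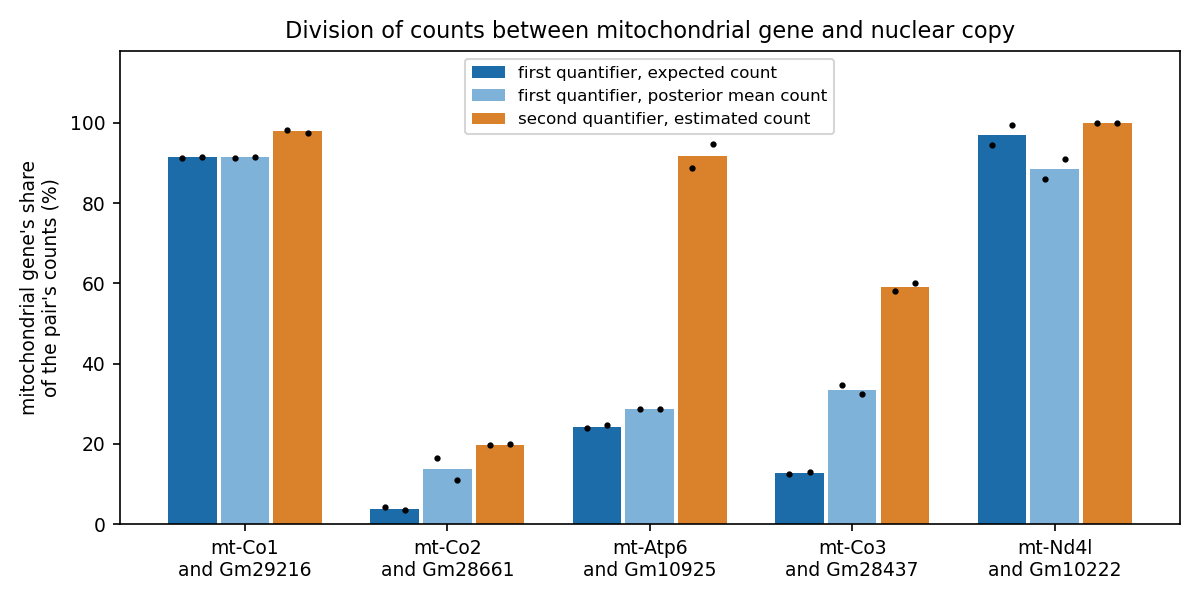
Share of a pair's counts, in percent, given to the mitochondrial gene rather than to its nuclear copy. Bars are the mean of 2 libraries and dots the libraries; the 3 estimates agree near 91.4 to 97.9% for mt-Co1 and range from 24.3 to 91.9% for mt-Atp6.

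A pooled level was also computed for each mRNA: the counts of gene and copy together over the effective length of the gene, on the TPM scale of that library. In the first quantifier the pooled level was highest for mt-Atp6, at 15378 TPM in library 1 and 18492 TPM in library 2. mt-Co2 followed at 13610 and 16113 TPM, mt-Co1 at 13319 and 15672 TPM, and mt-Co3 at 12762 and 14974 TPM. These 4 lay above mt-Cytb, the next in order, in both libraries and both quantifiers. In the second quantifier the pooled levels were 13231 and 16495 TPM for mt-Atp6, 12561 and 15245 TPM for mt-Co1, 12234 and 14687 TPM for mt-Co2, and 11594 and 13909 TPM for mt-Co3.

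The order as deposited was different. By share of mitochondrial mRNA TPM in the first quantifier it ran mt-Co1 (21.8 ± 0.234%), mt-Cytb (13.1 ± 0.0738%), mt-Nd1 (11.7 ± 0.0800%), mt-Nd4l, mt-Nd4, mt-Atp8, mt-Atp6, mt-Nd2, mt-Nd3, mt-Nd5, mt-Co3, mt-Nd6 (1.59 ± 0.193%) and mt-Co2 (0.947 ± 0.107%). Neighbours that did not differ beyond their spread were mt-Nd4 and mt-Atp8, mt-Atp6 and mt-Nd2, and mt-Nd2 and mt-Nd3. With pooled levels the order ran mt-Atp6 (16.7 ± 0.133%), mt-Co2 (14.6 ± 0.0450%), mt-Co1 (14.3 ± 0.106%), mt-Co3 (13.7 ± 0.129%), mt-Cytb (7.85 ± 0.0905%), mt-Nd1, mt-Nd4l, mt-Nd4, mt-Atp8, mt-Nd2, mt-Nd3, mt-Nd5 and mt-Nd6 (0.956 ± 0.110%). There mt-Nd4 and mt-Atp8, and mt-Nd2 and mt-Nd3, did not differ beyond their spread.

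Pooling also changed the make-up by complex. As deposited in the first quantifier, complex I mRNAs held 47.2 ± 0.0885% of mitochondrial mRNA TPM, complex III 13.1 ± 0.0738%, complex IV 25.6 ± 0.319% and complex V 14.1 ± 0.334%. With pooled levels complex I held 28.5 ± 0.0570%, complex III 7.85 ± 0.0905%, complex IV 42.6 ± 0.279% and complex V 21.1 ± 0.246%. In the second quantifier the shares of complexes I, III, IV and V were 39.9 ± 0.800%, 10.4 ± 0.0741%, 31.6 ± 0.250% and 18.1 ± 0.976% as deposited, and 32.4 ± 0.278%, 8.46 ± 0.157%, 43.2 ± 0.194% and 15.98 ± 0.316% with pooled levels. Pooling thus raised complex IV in both quantifiers, whereas complex V was higher with pooled levels in the first and lower in the second. The level of the 2 rRNAs over that of the 13 mRNAs was 1.65 ± 0.0364 as deposited and 0.990 ± 0.0160 with pooled levels in the first quantifier, with 1.22 ± 0.0225 and 0.994 ± 0.00687 in the second.

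**Figure D3:**
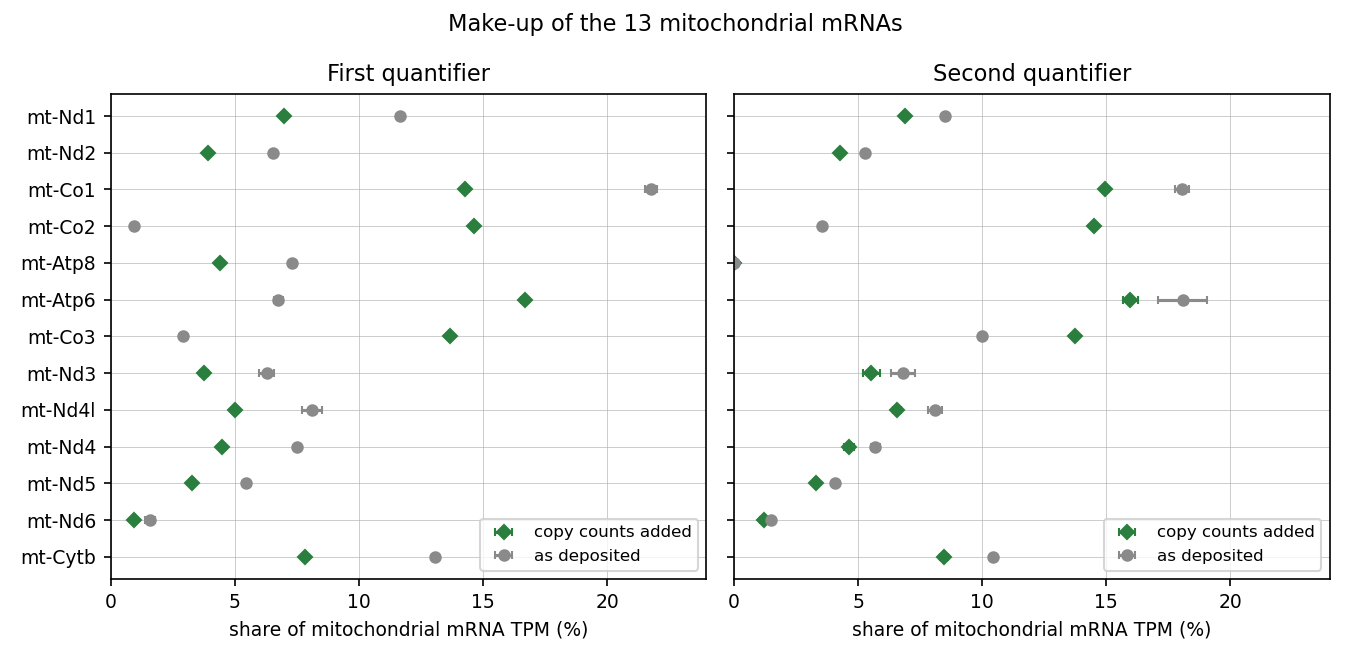
Share of mitochondrial mRNA TPM, in percent, of each mRNA in chromosome order; points are the mean and bars the SD of 2 libraries, green diamonds with copy counts added and grey circles as deposited. With copy counts added, mt-Co1, mt-Co2, mt-Atp6 and mt-Co3 lie between 13.7 and 16.7% in both panels, and as deposited mt-Co2 lies at 0.947% in the first quantifier.

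Among all 11596 genes with a mean TPM of at least 1 in either quantifier, 6.97% differed by 2-fold or more between the quantifiers. Of the 20 members above that level, 8 did. Higher in the first quantifier were Gm10222, listed at 0 in the second, Gm10925 (11.02-fold), Gm29216 (3.11-fold), Gm28437 (2.32-fold) and mt-Atp8 (512-fold, against the 13 and 20 counts above). Lower in the first quantifier were mt-Co2, mt-Co3 and mt-Atp6, whose levels in the second quantifier were 4.67, 4.26 and 3.32 times as high. After pooling, 12 of the 13 mRNAs lay within 0.746 and 1.14 times the level in the second quantifier, and mt-Atp8 stayed apart. Effective lengths differ too: the second quantifier gives mt-Atp8 50.5 and 56.8 bases, against 104 in the first. A shorter effective length raises TPM for a given count, so for mt-Atp8 this difference narrows the gap in TPM.

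Between the libraries the mitochondrial genes differed little. Ratios were taken as library 1 over library 2, from rounded expected counts on the scale of edgeR's TMM factors, a trimmed mean of gene ratios. They cover 11577 genes with at least 1 CPM (counts scaled to the size of a library) in each library, with 95% Clopper-Pearson intervals. The median log2 ratio was -0.10 over the 13 mRNAs and -0.04 over the 2 rRNAs, against -0.00066 over all genes. Of the 20 members tested 16 were below 0, against 5812 of the 11577 genes. Among these 20 members, 10 stand in pairs that share reads, so they are not independent. In absolute size the median was 0.11 for the mRNAs and 0.12 for all genes. All genes include those down to 1 CPM, where counting error is larger, and genes of like abundance were not compared. The lower and upper quartiles of the log2 ratio were -0.11 and -0.06 for the mRNAs, and -0.12 and 0.12 for all genes. With spike-in scaling the median of all genes was 0.06 and that of the mRNAs -0.03, and 11 of the 20 members were below 0. In this bulk tissue, fewer cells of a type and less RNA per cell cannot be told apart.

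Past an absolute log2 ratio of 1 lay 1 of the 20 members, the copy Gm10222, and 0.579% of all genes tested. Library 1 gave Gm10222 1493 expected counts and library 2 gave it 156, for a log2 ratio of 3.23 (2.99 to 3.47). Its posterior means were 3849 and 2613 counts, a log2 ratio of 0.53, and the sum of mt-Nd4l and Gm10222 was 27477 and 29080 counts, a log2 ratio of -0.11 (-0.14 to -0.09). In the second quantifier 1 member passed as well, but it was Gm10925, with 25700 and 12570 estimated counts and a log2 ratio of 1.01. The sum of mt-Atp6 and Gm10925 had a log2 ratio of -0.10 in that quantifier. With each copy added to its mitochondrial gene, 0 members passed in the first quantifier.

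By expected counts, the lowest among the members was mt-Nd4l, at 25984 and 28924 counts and a log2 ratio of -0.19 (-0.21 to -0.16). Its posterior SD, which the interval leaves out, was 806 counts in library 1 and 698 in library 2. The sum of mt-Nd4l and Gm10222 had -0.11 (-0.14 to -0.09), less low than mt-Atp8 at -0.13, and mt-Nd4l had -0.09 in the second quantifier. Highest among the mRNAs was mt-Nd6, the gene of the other strand, with 12214 counts in library 1 and 10666 in library 2. Its log2 ratio was 0.16 (0.13 to 0.20), and in the second quantifier it was 0.17. By deposited TPM, where all genes had a median of -0.17, mt-Nd6 was at -0.01. The labels name a directional library kit, and whether counting used the strand is not stated in the sources used here. Measured against mt-Nd5, its neighbour on the opposite strand with which it overlaps by 14 bases, the level of mt-Nd6 was 0.319 in library 1 and 0.265 in library 2. mt-Co2 had a log2 ratio of 0.15 (0.11 to 0.19) in the first quantifier, but its sum with Gm28661 had -0.07 (-0.08 to -0.06). mt-Nd3 was close to 0, at 0.01 (-0.01 to 0.04). By deposited TPM mt-Co2 was at -0.03 and mt-Nd3 at -0.16.

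**Figure D4:**
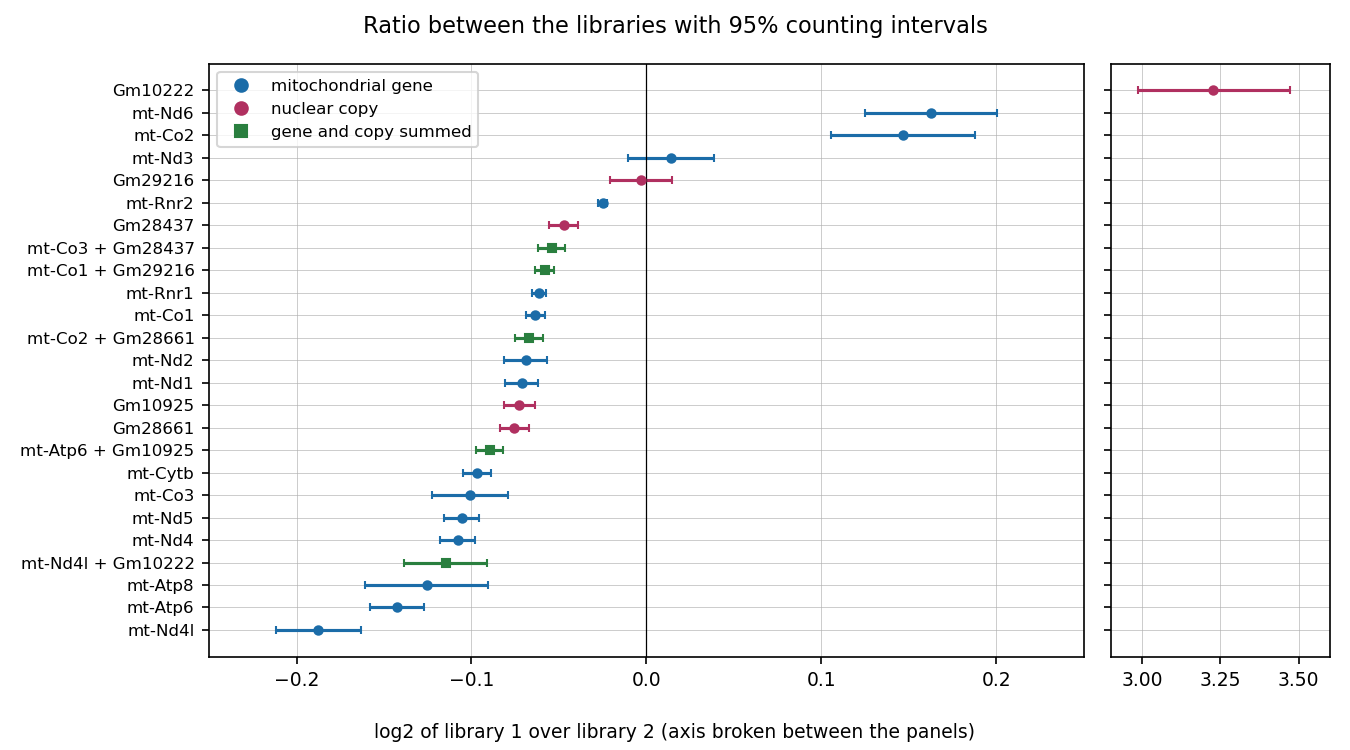
Log2 ratio of library 1 over library 2 after TMM scaling, with 95% counting intervals, for mitochondrial genes, copies and pair sums; the axis is broken. Points lie between -0.19 and 0.16 except Gm10222 at 3.23, and the 5 pair sums lie between -0.11 and -0.05.

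Levels of mitochondrial mRNAs were set against those of nuclear genes for subunits of the same complex, in the first quantifier unless stated. The lists held 36 genes for complex I, 9 for complex III, 12 for complex IV and 16 for complex V, of which Atp5pb did not match. That of complex V also holds Atpif1, an inhibitor of the ATP synthase rather than a subunit, at 23.0 ± 1.91 TPM, which enters the nuclear median. In complex I the median was 3650 TPM in library 1 and 4327 TPM in library 2 for mitochondrially encoded subunits, and 162 and 176 TPM for nuclear ones, a log2 ratio of 4.56 ± 0.0934. All 36 nuclear genes lay below mt-Nd6, from Ndufa3, an accessory subunit, at 430 ± 25.2 TPM to Ndufb3, another, at 71.6 ± 9.37 TPM. In complex III the log2 ratio of mt-Cytb over the nuclear median was 4.60 ± 0.0341, with nuclear genes between Uqcrq at 445 ± 44.0 TPM and Cyc1, cytochrome c1, at 174 ± 21.6 TPM.

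In complex IV this ratio changed with the treatment of the copies in both quantifiers, and in complex V mainly in the first. The log2 ratio for complex IV was 2.04 ± 0.0201 as deposited and 5.07 ± 0.0503 with pooled levels in the first quantifier, with 3.82 ± 0.0637 and 4.66 ± 0.0276 in the second. Pooling added copy counts to the mitochondrial genes only, and no copies were added to the nuclear genes. As deposited in the first quantifier, 10 of 12 nuclear genes were below mt-Co2, the lowest mitochondrial member. With pooled levels there, 12 of 12 nuclear genes were below the lowest, mt-Co3. They ran from Cox8b, the muscle form of subunit 8, at 774 ± 67.8 TPM to Cox8a, its widely expressed form, at 31.7 ± 3.03 TPM. For complex V the log2 ratio was 3.47 ± 0.0510 as deposited and 4.79 ± 0.0251 with pooled levels in the first quantifier. In the second quantifier it was 4.13 ± 0.103 and 4.25 ± 0.0375. Complex V has 2 mitochondrial genes, so its median is their midpoint. In the second quantifier 1 of these genes, mt-Atp8, stood at only 6.66 TPM in library 1 and 10.7 TPM in library 2. Nuclear genes of complex V ran from Atp5b, the catalytic beta subunit, at 1311 ± 95.2 TPM to Atp5g2, one of the genes for subunit c, at 7.94 ± 1.40 TPM.

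**Figure D5:**
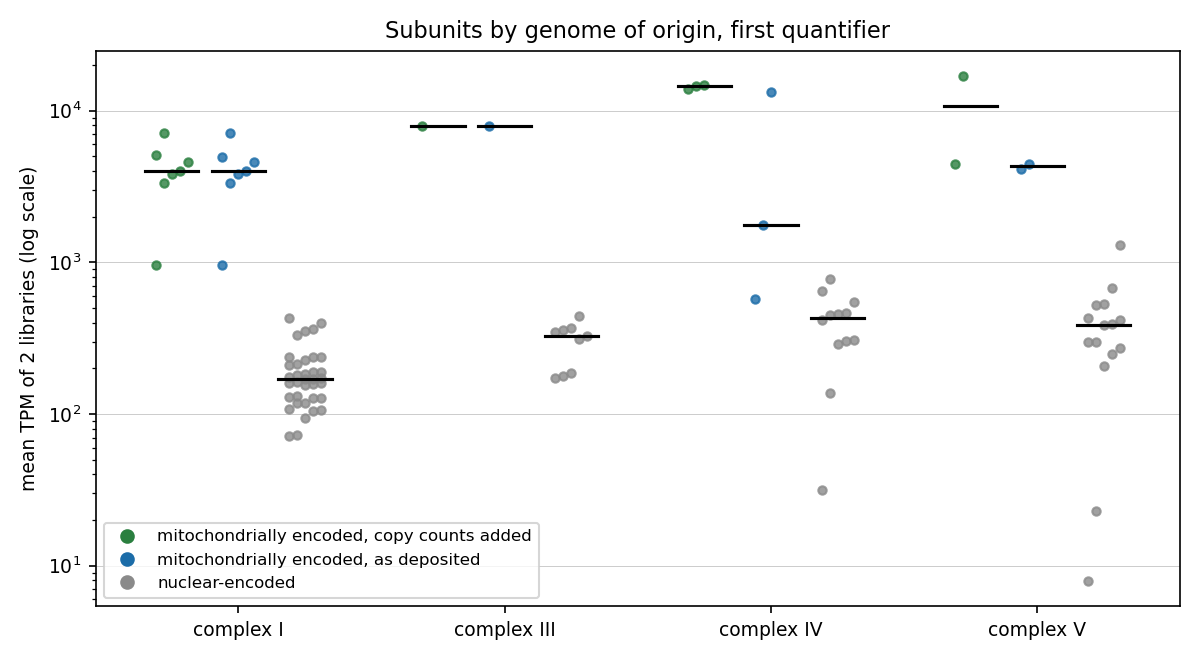
Mean TPM over 2 libraries, on a log axis, of subunit genes of complexes I, III, IV and V in the first quantifier; each dot is a gene and each line a median, for mitochondrial genes with copy counts added (green), as deposited (blue) and nuclear genes (grey). The blue median of complex IV, at 1771 TPM, lies below its green median of 14496 TPM, and both lie above the grey median of 432 TPM.

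Nuclear genes for mitochondrial gene expression were also listed, in a broad sense that includes replication of mitochondrial DNA, proteases and regulators of nuclear genes for mitochondrial proteins. Levels of this list are of the first quantifier unless stated. Of 67 listed symbols 64 matched, 61 of them at 1 TPM or more in both libraries. The median was 7.26 TPM in library 1 and 7.68 TPM in library 2. The highest was Fastk, an RNA-binding protein whose mitochondrial form is needed for mt-Nd6 mRNA, at 78.8 and 85.8 TPM. Slirp, the partner of Lrpprc in stabilising mitochondrial mRNAs, had 58.4 and 60.2 TPM, and Grsf1, of mitochondrial RNA granules, 48.6 and 54.7 TPM. Tufm, the mitochondrial translation elongation factor Tu, had 51.7 and 51.4 TPM, and Hsd17b10, a subunit of mitochondrial RNase P, 45.1 and 43.3 TPM. The lowest were Mterf1a and Mterf1b, of the termination factor family, at 0.655 ± 0.290 TPM and 0.655 ± 0.177 TPM, and Trmt61b, an RNA methyltransferase, at 0.490 ± 0.170 TPM. The order at the top changed in the second quantifier, where Slirp, at 76.7 and 76.2 TPM, lay above Fastk, at 58.9 and 65.2 TPM.

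Over the 61 genes of this list that passed the filter on counts the log2 ratio between libraries had a median of 0.02, with 35 above and 26 below 0. Over all genes the median was -0.00066, with 5765 above and 5812 below 0. None of the 61 differed by 1.5-fold or more, against 3.80% of all genes tested. Below the filter, Mterf1a had 18 and 34 counts and a log2 ratio of -0.95 (-1.86 to -0.09).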

How the data were processed

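The build was mm10 and the annotation GENCODE M21, per the deposited read-me. Expected counts and TPM of the first quantifier, deposited by the authors, derive from a transcriptome alignment, per the read-me, and have the columns that RSEM writes, per the file headers. Estimated counts and TPM of the second quantifier derive from the reads directly, per the read-me, with the columns that kallisto writes. The software is not named in the sources used here. The deposited posterior SD, a score of uncertainty per gene, was used as given. Estimated counts were summed over transcripts of a gene. The deposited TPM was taken over all entries, spike-ins included; shares here leave out spike-ins, and also 26248 entries named by a number only, which held 1 count in library 1 and 0 in library 2.

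Annotation and sequences came from GENCODE M21, and every gene identifier matched it. Copies were aligned to their mitochondrial gene, and windows of 101 bases were searched in all annotated transcripts. Expected counts were rounded and scaled with TMM (edgeR 4.0.16, R 4.3.3), with DESeq2 1.42.0 size factors, spike-ins and no count filter as alternatives. Intervals are Clopper-Pearson at 95% (scipy 1.17.1) and cover counting error only. The steps for ratios were run on simulated counts with Poisson error only. There 177 of the 177 changed genes tested were recovered, and 0 unchanged genes were called. The simulation held no reads shared between genes and no spread beyond counting error, so it cannot speak to either. With 1 group no p-value was computed. Genes with a mean TPM of at least 1 in either quantifier entered the comparison of quantifiers. All members were described. From the gene expression list, the 5 highest and the 3 lowest in the first quantifier and those 1.5-fold or more apart were named. From the nuclear subunits the highest and lowest were named. Members and lists were chosen with earlier results of these data known.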

Additional observations from a re-analysis of the deposited data

How the results depend on the processing

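Leaving out a replicate leaves the value of the other library, which, for shares and ratios, cannot fall outside the spread of 2 libraries and shows nothing of stability; the ranges were 5.58 to 6.70% (13 mRNAs), 9.35 to 10.9% (rRNAs), 4.09 to 4.80% (copies), 0% (tRNAs), 41.7 to 42.3% (copies within mRNAs and copies), 0.44 to 0.48 (log2 of mt-Rnr2 over mt-Rnr1), 21.6 to 21.9% (leading mRNA), 4.49 to 4.62, 4.58 to 4.62, 2.02 to 2.05 and 3.43 to 3.51 (log2 subunit ratios of complexes I, III, IV and V), 11.6 to 11.7 (posterior SD over root count) and 8 members apart between quantifiers, a count that could have changed. Of the 42 other alternative values for 15 results, 18 stayed within the spread between libraries or within the 2 limits given next. Counts of genes were to stay within 1.5 times. The median log2 ratio between libraries was judged against the SD over the 13 mRNAs, which is not a spread between libraries. The tRNA share was 0 under every setting, so its values are among the 18 without showing stability. With the second quantifier, 13 mRNAs held 7.61%, copies 1.89% (19.9% within mRNAs and copies), log2 of mt-Rnr2 over mt-Rnr1 was 0.73, mt-Atp6 led the mRNAs with 18.1%, and the subunit ratios were 4.68, 4.44, 3.82 and 4.13. With expected counts in place of TPM, which are not corrected for length, the values were 4.49%, 2.09%, 31.8% and 1.26, and mt-Co1 led with 34.5%. Without 7SL RNA the 13 mRNAs held 8.90%. Copies added in TPM left mt-Co1 leading with 17.0%. The deposited TPM gave a median log2 ratio of -0.27 over the 13 mRNAs, where that of all genes was -0.17. Alternatives chosen after seeing the data were posterior mean counts (27.9% for copies, 0 members past the fold between libraries) and copies added in counts (mt-Atp6 leading with 16.7%, 0 members past the fold, 1 apart between quantifiers, subunit ratios of 5.07 for complex IV and 4.79 for complex V). Of 52 shares of single mRNAs under other settings 50 moved beyond the spread between libraries. The causes were not tested. No paired analysis was possible because both libraries belong to 1 group and so no groups can be paired; the quantifiers were set side by side within each library. With 2 libraries each SD rests on 1 degree of freedom.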
